A study of Mus musculus with 30 samples.

Results

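Cells sorted from fat as macrophages were compared with bone marrow (BM) in obese mice given vehicle, to show which genes separate the 2 tissues when obesity is left untreated. The 3 libraries of adipose tissue macrophages (ATMs) and the 3 BM libraries of the Vehicle group were used, 6 of the 30 libraries of the study, over the 13076 gene symbols listed in both count tables, of 17336 listed in either. The ATM libraries are labelled as macrophages of visceral fat, and the study describes them as sorted on F4/80, while BM is unsorted marrow, so a difference between them holds the sort as well as the tissue. Both came from Ob/Ob mice, which lack functional leptin and become obese. The recipients had been lethally irradiated with 700 and 400 cGy and given marrow of Shp2E76K/+;LysM-Cre+ donors (CD45.2) in a 1:1 mixture with Boy/J marrow (CD45.1), and vehicle was begun 8 weeks after the transplant and kept up for 30 days. The recipients were 12 to 14 weeks old by the labels, of both sexes, and the labels name C57BL/6J as the genotype of every sample without telling Ob/Ob from WT mice.

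The Shp2 E76K allele keeps the phosphatase SHP2 active, and the Cre recombinase driven by the Lyz2 promoter switches it on in myeloid cells, while competitor and surviving host cells do not carry the allele. Counts do not separate donor, competitor and host cells. WT recipients of the same transplant and Ob/Ob recipients given the glucagon-like peptide 1 receptor agonist beinaglutide with an anti-IL-17A antibody (Combo) served as further pairs of tissues, with 3 libraries each. For the WT recipients, no vehicle course and no time from transplant to treatment is recorded.

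Macrophages of fat clear dying adipocytes and store their lipid, and in obesity many take on a lipid-associated state marked by the lipid receptor Trem2 and by genes for fatty acid binding and lysosomal digestion. Resident macrophages of lean fat carry other markers, such as the hyaluronan receptor Lyve1. Marrow is where blood is made, and it holds dividing progenitors, neutrophil precursors that fill their granules in a fixed order, red cell precursors and B cell precursors.

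ATM libraries of the Vehicle group held 27229278 to 30195059 counts on genes and BM libraries 31281097 to 34797411. Replicates were closer in BM than in ATMs, with a biological coefficient of variation of 2.89% and 34.9%. Over all treatment groups it was 3.49% in BM and 23.1% in ATMs. The fit took the spread of each gene from all 30 libraries together. The SE and adjusted p-values below may therefore understate the spread of the ATM libraries of Vehicle. Levels are given as normalized counts, that is counts divided by the effective library size of the trimmed mean of M values (TMM) and brought to the mean size over 30 libraries, and are not corrected for gene length. Differences are given as log2FC, the log2 fold change of ATMs minus BM from edgeR's quasi-likelihood test, with Benjamini-Hochberg adjusted p-values over all 13076 genes. The SE given with a log2FC was calculated back from the test, as its size divided by the square root of the F value. Where a group holds few counts, this SE understates the error of counting. A gene was called at an adjusted p below 0.05 and a log2FC beyond 1 in either direction. The tissues differed in much of the transcriptome: 6522 genes (49.9%) were called, 3094 (23.7%) higher and 3428 (26.2%) lower in ATMs, and the median log2FC of all genes was -0.12. Replicates of the 2 tissues did not overlap for 78.5% of genes (ATMs above BM for 35.5% and below for 43.1%), so neither a call nor separated replicates sets a gene apart in this comparison. The counts of list members given below are to be read beside these shares of all genes.

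The label of the ATM libraries was first checked against markers. Ptprc encodes CD45, which every white blood cell carries, and was at 4346, 4901 and 3889.5 normalized counts in the 3 ATM libraries and 17321, 17332 and 17152 in BM, a log2FC of -1.98 ± 0.065 SE, adjusted p = 2.31e-20. Every ATM library was below every BM library. In bulk RNA, fewer cells of a type and less RNA per cell cannot be told apart. Lyz2, the lysozyme gene whose promoter drives Cre, was at 31875, 31197 and 33815 in ATMs and 117915, 116108 and 116351 in BM (log2FC -1.85 ± 0.025 SE, adjusted p = 3.68e-29). Adgre1 encodes F4/80, on which the ATMs were sorted, so its level is no finding. It was at 1056, 1818 and 1542 in ATMs and 752, 839 and 770.0 in BM, and its log2FC of 0.90 was below the limit for a call, though it was called without ATM replicate 1 (log2FC 1.15) and over genes with at least 10 counts in every library (1.00).

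Macrophage genes were divided. Of the 13 members of the macrophage identity list, 5 were called higher and 3 lower in ATMs (median log2FC 0.90). The endosomal protein Cd68 was at 18221, 17538 and 19204 in ATMs and 3164, 3218 and 3254 in BM, a log2FC of 2.51 ± 0.049 SE, adjusted p = 1.59e-25. C1qb and C1qc, chains of the first complement component that macrophages make, rose with log2FC 2.42 and 2.10, and Mertk, a receptor for apoptotic cells, with 1.44. Against them, Csf1r, the receptor for the macrophage growth factor CSF1, was at 1748, 1887 and 1335 in ATMs and 4729, 4605 and 4717 in BM (log2FC -1.50 ± 0.067 SE, adjusted p = 2.66e-17). Mpeg1, which encodes the pore-forming protein perforin-2, fell with a log2FC of -2.16 and the transcription factor gene Maf with -1.99. The summed level of the list was 2234 to 2256 CPM (counts scaled to a common effective library size) in the ATM libraries and 2074 to 2102 in BM. The libraries of the tissues did not overlap for any of the 13 members, beside 78.5% of all genes, and 7 lay above and 6 below BM.

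Markers of cells other than leukocytes were far higher in ATMs. All 9 endothelial genes were called higher (median log2FC 6.86), and their summed level was 4278 to 4426 CPM in ATMs and 69.5 to 71.9 in BM. Esam, an adhesion molecule of vessel walls, was at 42350.5, 43387 and 40688 in ATMs and 55, 51 and 70.8 in BM (log2FC 9.49 ± 0.13 SE, adjusted p = 3.35e-29). Cldn5, a tight junction protein of endothelium, was at 36956 and 44.1 (log2FC 9.71), Emcn, an endothelial sialomucin, at 8737 and 21.2 (log2FC 8.68), and the angiopoietin receptor gene Tek at 1144 and 8.07 (log2FC 7.13). The fibroblast and mesothelial list had all 8 tested members called higher (median log2FC 5.89), led by the collagen gene Col3a1 at 64068, 56632 and 50107 in ATMs and 47.3, 51 and 32.5 in BM. Its summed level was 6172 to 6635 CPM in ATMs and 37.1 to 40.0 in BM. Of the adipocyte genes, 5 of 6 tested were called higher, among them the lipid droplet gene Cidec (mean 1073 in ATMs and 7.37 in BM) and Adipoq, which encodes adiponectin (mean 396 and 66.2). On these markers the ATM libraries went against their label in part: the summed endothelial level was above that of macrophage identity, Ptprc and Csf1r were below whole marrow, and Adgre1 was not called higher. They are therefore called ATMs by their label only, and the part of non-leukocyte and of neutrophil RNA in the differences that follow was not tested. The sums are of unlike lists, without correction for gene length. In the same ATM libraries the lipid-associated macrophage list summed to 16980 to 17520 CPM and the late granule and mature neutrophil list to 27260 to 29090.

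Levels were also divided by that of Ptprc in the same library. On that scale Adgre1 was 7.39-fold higher in ATMs than in BM (mean ratio 0.337 ± 0.0823 against 0.0456 ± 0.00257, SD, n = 3 each), Cd68 22.8-fold and Csf1r 1.39-fold. Lyz2 per Ptprc was 7.46 ± 1.17 in ATMs and 6.76 ± 0.0569 in BM, a gap smaller than the spread of the ATM libraries. The same division gave a ratio higher in ATMs by 311-fold for the endothelial cadherin gene Cdh5 and 5178-fold for Col3a1. These ratios are descriptions without a test.

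**Figure D1:**
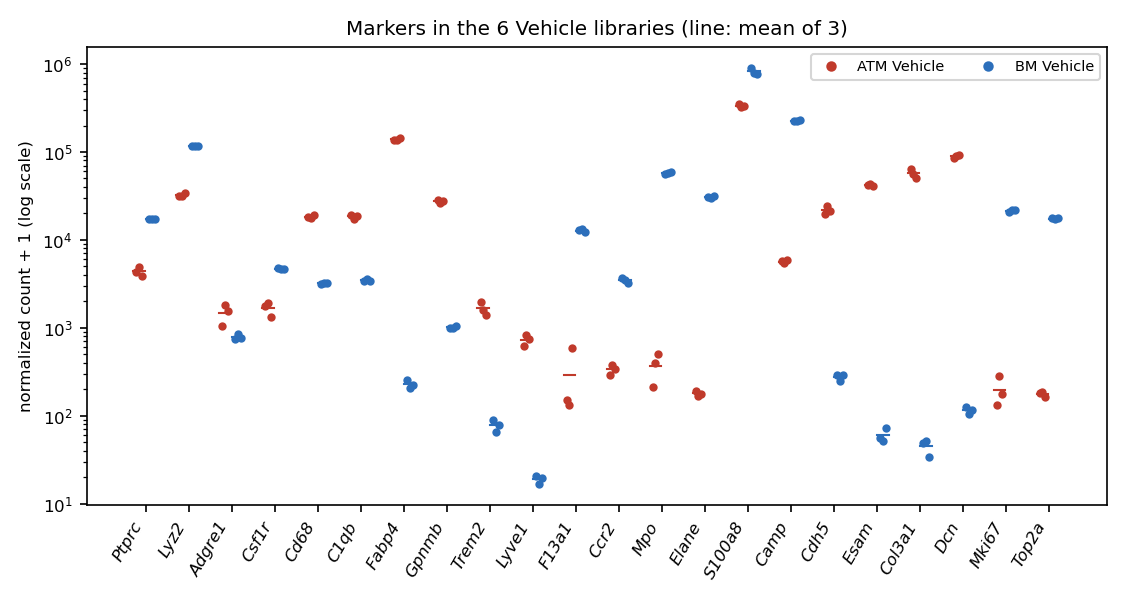
Normalized counts plus 1 on a log scale (y) of 22 marker genes (x) in the 3 ATM (red) and 3 BM (blue) libraries of the Vehicle group; points are libraries and lines are means. Ptprc and Lyz2 lie lower in ATMs, Adgre1 lies close in both tissues, the endothelial genes Cdh5 and Esam and the collagen gene Col3a1 lie far higher in ATMs, and Mpo, Elane and Mki67 lie far lower.

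Genes of the lipid-associated state rose. In that list 15 of the 17 members tested were called higher and 0 lower (median log2FC 2.61), beside 23.7% higher and 26.2% lower over all genes. Fabp4, a fatty acid binding protein that adipocytes and endothelium also make, was at 137102, 138074 and 145092 in ATMs and 251, 204 and 222 in BM, a log2FC of 9.28 ± 0.088 SE, adjusted p = 2.27e-32. Mmp12, the macrophage elastase, was at 11437, 9673 and 10892 and 17.6, 21.8 and 16.3 (log2FC 9.15 ± 0.12 SE, adjusted p = 8.39e-30). For both genes the lowest ATM library was far above the highest BM library. The fatty acid receptor Cd36, also found on capillary endothelium, was at 71068 ± 1599.8 (SD, n = 3) in ATMs and 291 ± 15.1 in BM, and the proton pump subunit Atp6v0d2 at 2498 ± 332 and 44.5 ± 8.38. Trem2 was at 1966, 1608 and 1405 in ATMs and 88, 64.5 and 77.8 in BM (log2FC 4.44 ± 0.11 SE, adjusted p = 1.23e-23), and Gpnmb, a lysosomal glycoprotein of lipid-laden macrophages, at 27603 and 1010.3 (log2FC 4.77). The integrin gene Itgax and the lysosomal lipase gene Lipa were not called (log2FC 0.40 and 0.53).

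Resident macrophage genes did not move as a block. Of 12 tested, 5 were called higher and 2 lower (median log2FC 0.30). Lyve1, which lymphatic endothelium carries as well, was at 622, 835 and 737 in ATMs and 19.8, 15.6 and 18.6 in BM (log2FC 5.34 ± 0.24 SE, adjusted p = 3.36e-17), and the carbonyl reductase gene Cbr2 at 2759 and 8.68. Gas6, a bridging ligand between dying cells and their receptors, and the chemokine gene Ccl8 rose with log2FC 4.78 and 4.33. F13a1, which encodes a clotting factor subunit and which marrow monocytes also express, was at 151, 132 and 583 in ATMs and 12806, 13128 and 12334 in BM (log2FC -5.48 ± 0.24 SE, adjusted p = 1.64e-17). Cd209f, a lectin of resident macrophages, was at 0 counts in all 3 ATM libraries and at a mean of 5.85 in BM, at least 3.9-fold lower. Timd4, Mrc1, Cd163 and Vsig4 were not called, and Timd4, a receptor for phosphatidylserine on dying cells, was at 69.6 and 69.5.

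Monocyte genes fell. In the classical monocyte list 1 of the 9 members tested were called higher and 7 lower (median log2FC -2.23). Chil3, a chitinase-like protein that marrow monocytes and neutrophils make, was at 25516, 23522 and 23959.7 in ATMs and 428775, 425464 and 422977 in BM (log2FC -4.13 ± 0.073 SE, adjusted p = 1.51e-26). Ccr2, the receptor by which monocytes leave marrow for the chemokine CCL2, was at 286, 379 and 340.3 and 3728, 3519.7 and 3270.3 (log2FC -3.39 ± 0.11 SE, adjusted p = 1.52e-20). Hp, haptoglobin, fell with a log2FC of -2.25 and the coagulation factor gene F10 with -2.96, while the proteoglycan gene Vcan rose with 1.20. Dendritic cell genes were divided, with 6 of 11 members called higher and 4 lower (median log2FC 1.94). Zbtb46, a transcription factor of conventional dendritic cells and endothelium, was at 2184 and 192, and the chemokine receptor gene Ccr7 at 7466 and 815. Siglech, a marker of plasmacytoid dendritic cells, had 0 counts in all 3 ATM libraries against a mean of 387 in BM, at least 257-fold lower.

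**Figure D2:**
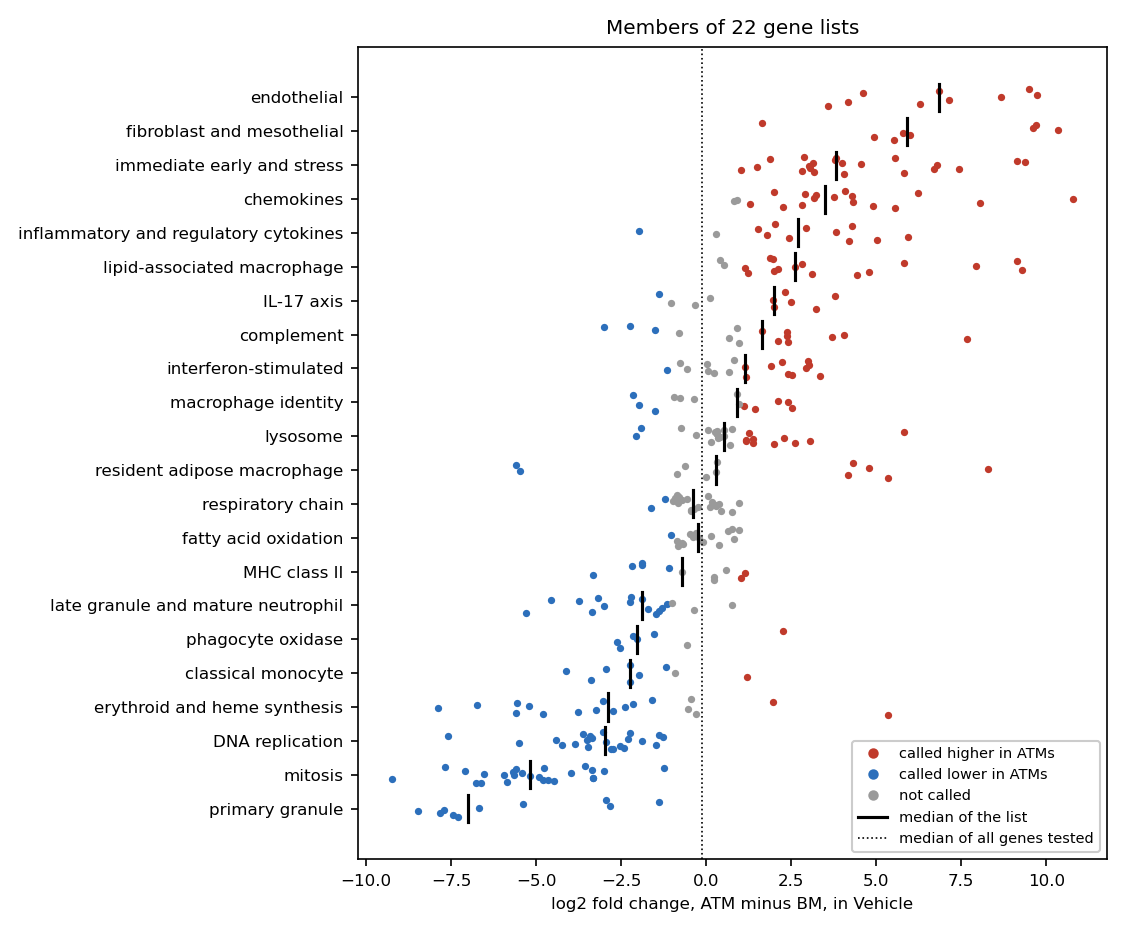
Log2FC of ATMs minus BM in Vehicle (x) for the members of 22 gene lists (y), red for genes called higher in ATMs, blue for lower and grey for not called; black bars are list medians and the dotted line is the median of all genes, -0.12. Endothelial, fibroblast, immediate early and chemokine genes lie to the right, while the mitosis, DNA replication and primary granule lists lie wholly to the left.

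Genes of granule formation in marrow separated the early from the late stages. Primary granules are made by promyelocytes, and all 10 members of that list were called lower in ATMs (median log2FC -6.99). Elane, neutrophil elastase, was at 189, 167 and 177 in ATMs and 30739.6, 30283 and 31232 in BM (log2FC -7.43 ± 0.11 SE, adjusted p = 6.13e-28). Ctsg, cathepsin G, was at 64.7, 27.6 and 83.1 and 20569, 21278 and 21101 (log2FC -8.48 ± 0.18 SE, adjusted p = 7.45e-25). Prtn3, proteinase 3, and Ms4a3, a membrane protein of granulocyte and monocyte progenitors, fell with log2FC -7.84 and -7.70. Every ATM library was below every BM library for all 10 genes, beside 43.1% of all genes.

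Late granule and mature neutrophil genes fell less, with 14 of 17 called lower and 0 higher (median log2FC -1.89). They kept high levels in ATMs, with a summed 27260 to 29090 CPM, beside 136800 to 138300 in BM. Camp, the cathelicidin of secondary granules, was at 5762, 5400.2 and 5842 in ATMs and 222439, 223678 and 228763 in BM (log2FC -5.31 ± 0.061 SE, adjusted p = 1.36e-30), and Ngp, neutrophilic granule protein, at 89225 and 909294. S100a8, a calcium-binding protein of mature neutrophils and monocytes, was at 347250, 321101 and 333423 in ATMs and 906497, 798901 and 771284 in BM (log2FC -1.31 ± 0.079 SE, adjusted p = 2.26e-14). Retnlg and Mmp8, genes of mature neutrophils, were not called, at 26898 and 19682 in ATMs and 15799 and 25361 in BM. Divided by Ptprc, S100a8 was 1.61-fold higher in ATMs, and Mpo, the myeloperoxidase of primary granules, was at 0.0256 of its BM ratio.

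Red cell genes were divided. In the erythroid list 2 of the 18 members tested were called higher and 13 lower (median log2FC -2.88). Car1, a carbonic anhydrase of erythroid precursors, was at 94.3, 75.2 and 29.8 in ATMs and 15698, 16074 and 15673 in BM (log2FC -7.87 ± 0.22 SE, adjusted p = 7.01e-22). Gata1, the transcription factor of the erythroid lineage, was at 22.5, 56.8 and 42.3 and 1924, 1978 and 1973 (log2FC -5.60 ± 0.50 SE, adjusted p = 8.85e-11), and Hemgn, a nuclear protein of precursors, and the spectrin gene Sptb fell with -6.72 and -5.57. The opposite was seen for Alas2, the erythroid enzyme that starts heme synthesis, at 234241, 232434 and 228875 in ATMs and 5746, 5665 and 5589 in BM (log2FC 5.35 ± 0.032 SE, adjusted p = 1.61e-36), and for Fech, which inserts the iron (mean 14487 and 3706). The summed level of the list was higher in ATMs, at 7716 to 7830 CPM against 2772 to 2829 in BM. Most of that sum in ATMs was Alas2, so it does not stand for the list, of which 13 members were called lower. Tspo2 and Slc25a37 were among the members not called (log2FC -0.52 and -0.45). By the annotation 15.5% of the exon length of Alas2 is shared with another gene, and reads on several genes were counted for each.

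The promoters of Alas2 and Hemgn, which moved in opposite directions, were read from RefSeq (GRCm38.p6) as the 200 bases before the start, with each AGATAA or TGATAA on either strand in capitals, the letters of the GATA factor motif.
Alas2 (chrX:150547217-150547416, plus strand): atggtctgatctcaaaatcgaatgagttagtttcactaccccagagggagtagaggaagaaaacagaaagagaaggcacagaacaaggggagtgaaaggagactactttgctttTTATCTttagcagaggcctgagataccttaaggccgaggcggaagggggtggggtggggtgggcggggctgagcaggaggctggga
Hemgn (chr4:46404184-46404383, minus strand): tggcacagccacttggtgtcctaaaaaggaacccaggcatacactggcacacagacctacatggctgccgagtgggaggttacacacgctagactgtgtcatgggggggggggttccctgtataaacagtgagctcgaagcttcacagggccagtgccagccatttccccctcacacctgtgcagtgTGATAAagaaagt
Both hold 1 match, and they were chosen for printing because they hold the motif. Of the 11 promoters of the erythroid list 5 (45.5%) held the motif, and of all 12697 promoters of the genes tested 7.3%. A match is a description of letters and not of binding.

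Other blood lineages were lower in ATMs in part. In the early B cell list 1 of the 8 members tested were called higher and 5 lower (median log2FC -2.42). Pax5, which fixes B cell identity, was at 0, 24.6 and 9.41 in ATMs and 439, 416 and 448 in BM (log2FC -5.27 ± 0.75 SE, adjusted p = 4.32e-07), and Cd79b, a chain of the B cell receptor, at 259 and 3533. Ebf1, a B cell factor that adipocyte precursors and stromal cells also express, rose with a log2FC of 1.94. Stem and progenitor genes had 8 of 13 members called higher and 4 lower (median log2FC 1.36). The members that rose with the largest log2FC were Mecom (5.55), Procr (4.03), Cd34 (3.59) and Ly6a (3.51), all of which endothelial or stromal cells are known to express. Myb, needed for progenitor growth, was at 286, 154 and 65.9 in ATMs and 2836, 2892 and 2755 in BM. The megakaryocyte and platelet list had 1 of 10 members called higher and 5 lower (median log2FC -1.94). Vwf, von Willebrand factor, which endothelium also makes, rose to 3252 from 169.7, while the platelet tubulin gene Tubb1 fell (mean 13.6 and 268).

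T cell genes had 4 of 11 members called higher and 2 lower (median log2FC 0.68), with Cd3e, a chain of the T cell receptor complex, at 827 and 264 and Cd8a, the coreceptor of cytotoxic T cells, at 67.6 and 392. NK and cytotoxic genes had 2 of 9 members called higher and 5 lower (median log2FC -1.12), and Ncr1, an activating receptor of NK cells, was at 6.27 and 70.5. Mature B and plasma cell genes had 2 of 8 members called higher and 3 lower (median log2FC 0.10), a median that was -0.10 with library size as the only scaling.

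In the mast cell, basophil and eosinophil list 3 of the 11 members tested were called higher and 6 lower (median log2FC -2.81), and a mast cell gene gave the largest positive log2FC of all genes. Tpsb2, a mast cell tryptase (chr17:25366305-25369098, GRCm38), was at 14495, 12739.7 and 14015 in ATMs and 2.2, 0 and 1.16 in BM (log2FC 13.46 ± 0.18 SE, adjusted p = 2.3e-29). With so few counts over the BM libraries, the ratio of ATMs to BM was 12541 with an exact 95% counting interval of 4291 to 60815, which covers counting error only. The mast cell chymases Mcpt4 and Cma1 were also among the 8 highest, with means of 3361 and 10020.5 in ATMs and 0.367 and 6.27 in BM. Genes of basophils and eosinophils moved the other way: Mcpt8, a basophil protease, was at 54.4 in ATMs and 11159 in BM, and Epx, eosinophil peroxidase (chr11:87864000-87875536), had 0 counts in every ATM library and 2808, 2915 and 3018 normalized counts in BM, at least 1940.5-fold lower.

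Genes of cell division were lower in ATMs without exception among the members tested. All 25 mitosis genes (median log2FC -5.18) and all 22 DNA replication genes (median log2FC -2.99) were called lower, beside 26.2% of all genes. Mki67, which encodes the proliferation antigen Ki-67, was at 129, 284 and 177 in ATMs and 20747, 21760 and 21944 in BM (log2FC -6.78 ± 0.14 SE, adjusted p = 4.01e-25). The checkpoint kinase gene Bub1 was at 0, 7.68 and 0 and 1629, 1508 and 1606 (log2FC -9.23 ± 0.38 SE, adjusted p = 4.1e-18). The summed mitosis list was at 191 to 203 CPM in ATMs and 3985 to 4053 in BM. Of replication genes, Rrm2, a subunit of the enzyme that makes deoxynucleotides, was at 229, 296 and 375 and 13501, 13832 and 13450.5 (log2FC -5.51 ± 0.12 SE, adjusted p = 2.09e-24), and Pole, a replicative polymerase, at 9.83 and 1874. Spag5, a spindle protein (chr11:78301529-78322457), had the largest negative log2FC of the rule for named genes: all 3 ATM libraries had 0 counts against 3842, 4031 and 3987 in BM, at least 2635-fold lower. Parpbp, Depdc1a, Kifc5b, Polq and Bard1, known from DNA repair or the spindle, were also among the 8 lowest, with means of 586, 532, 1084, 706 and 1156 in BM and at most 1.03 in ATMs.

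Promoters of 3 mitosis genes are shown as the 200 bases before the start (RefSeq, GRCm38.p6), because genes of this kind share the letters CCAAT and TTTGAA, the latter known as the cell cycle homology region. Matches on either strand are in capitals.
Mki67 (chr7:135716380-135716579, minus strand): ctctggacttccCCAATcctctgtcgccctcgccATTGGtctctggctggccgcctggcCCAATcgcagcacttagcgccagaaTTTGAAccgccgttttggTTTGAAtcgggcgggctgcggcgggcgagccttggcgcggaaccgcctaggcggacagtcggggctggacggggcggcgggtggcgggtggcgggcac
Top2a (chr11:99024190-99024389, minus strand): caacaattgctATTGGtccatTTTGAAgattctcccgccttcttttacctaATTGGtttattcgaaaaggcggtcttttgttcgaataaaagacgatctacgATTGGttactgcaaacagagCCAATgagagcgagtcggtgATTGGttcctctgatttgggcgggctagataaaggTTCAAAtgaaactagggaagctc
Kif11 (chr19:37376182-37376381, plus strand): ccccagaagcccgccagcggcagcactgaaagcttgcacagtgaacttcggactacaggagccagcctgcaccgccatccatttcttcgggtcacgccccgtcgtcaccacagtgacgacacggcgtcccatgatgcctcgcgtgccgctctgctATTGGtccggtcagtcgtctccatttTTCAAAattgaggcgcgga
Top2a, a topoisomerase that untangles chromosomes, was at 182, 186 and 160.0 in ATMs and 17544, 17323 and 17527 in BM, and Kif11, a motor of the spindle, at 241, 73.7 and 12.5 and 7109, 6815 and 6886. CCAAT stood in 18 of 22 promoters of the mitosis list (81.8%) and in 13 of 22 of the replication list (59.1%), beside 31.3% of all promoters. TTTGAA stood in 9 of 22 (40.9%) and 2 of 22 (9.09%), beside 7.84% of all promoters. Promoters were chosen for printing because they hold both motifs.

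Chemokine genes rose in ATMs. Of 18 chemokine genes tested, 16 were called higher and 0 lower (median log2FC 3.49), and each ATM library was above each BM library for all 18, beside 35.5% of all genes. Cxcl1, which draws neutrophils (chr5:90891241-90893115), was at 60160.4, 58579 and 65728 in ATMs and 16.5, 43.7 and 44.1 in BM (log2FC 10.78 ± 0.15 SE, adjusted p = 3.34e-27). Ccl2, the ligand of CCR2, was at 138450, 131632 and 147518 and 2976, 2888 and 3011 (log2FC 5.56 ± 0.076 SE, adjusted p = 4.53e-29). Ccl7, a further CCR2 ligand, was at 82875 and 316, and the B cell attractant Cxcl13 at 5329.8 and 70.8. Ccl12 and Ccl9 missed the limit with log2FC 0.92 and 0.82. Among chemokine receptors, 5 of the 14 members tested were called higher and 4 lower (median log2FC -0.09), with the scavenging receptor Ackr3 at 12818 and 38.8 and Cxcr4, which holds cells in marrow, at 2654 and 11919.5.

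Of 12 cytokine genes, 10 were called higher and 1 lower. Il6 was at 19778, 17909.6 and 20316 in ATMs and 333, 293 and 314 in BM (log2FC 5.95 ± 0.13 SE, adjusted p = 7.71e-25). Il1b was at 17993, 16463 and 18464 and 586, 515 and 538 (log2FC 5.01 ± 0.069 SE, adjusted p = 5.86e-29). For both, the lowest ATM library was far above the highest BM library. Csf1 was at 28229 and 1444 (log2FC 4.29), and Il10, which restrains inflammation, at 491 and 141 (log2FC 1.80). Tgfb1 was the gene called lower, at 1414 and 5552 (log2FC -1.97).

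In the IL-17 axis, 6 of the 10 members tested were called higher and 1 lower (median log2FC 1.98). Il17a, whose product the anti-IL-17A antibody binds, was at 224, 179.6 and 292 in ATMs and 19.8, 21.8 and 32.5 in BM (log2FC 3.22 ± 0.59 SE, adjusted p = 4.36e-05). Every ATM library was above every BM library. The receptor gene Il17ra was at 9246, 9667 and 8654 in ATMs and 11264, 11835 and 11791 in BM and was not called (log2FC -0.34 ± 0.066 SE, adjusted p = 4.24e-05). Of genes that IL-17 induces, Nfkbiz, a nuclear cofactor, rose with a log2FC of 3.80, and Lcn2, lipocalin 2, which neutrophil precursors also make, fell with -1.38.

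All 21 immediate early and stress genes were called higher in ATMs (median log2FC 3.81). The heat shock genes Hspa1a and Hspa1b, near-identical copies for which reads that fit both were not counted, were at 76344 and 92419 in ATMs and 114 and 163 in BM. The transcription factor genes Egr2 and Atf3 were at 4912 and 66664 in ATMs and 28.2 and 598 in BM, and Fos was at 129116, 123583 and 127656 and 7466, 7703 and 7704 (log2FC 4.06 ± 0.029 SE, adjusted p = 4.58e-35). ATMs had been sorted and BM had not, and on these genes the tissue and the sort cannot be told apart. Interferon-stimulated genes had 10 of 18 members called higher and 1 lower (median log2FC 1.16), with Ifit1 at 110389 and 10963, Rsad2 at 213239 and 26474, and Oas2 called lower (log2FC -1.16).

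**Figure D3:**
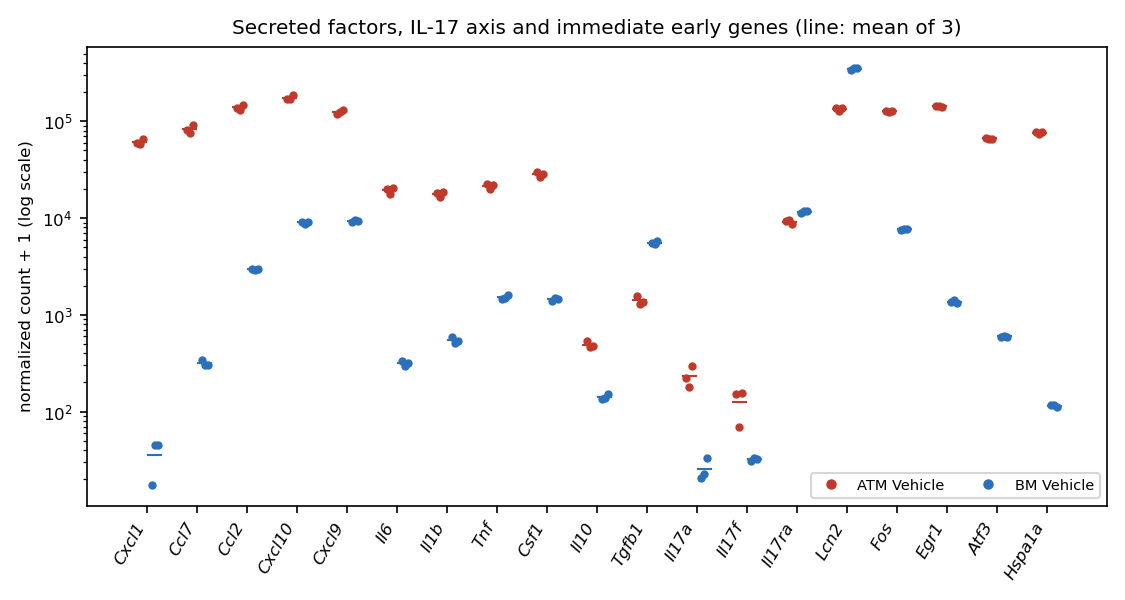
Normalized counts plus 1 on a log scale (y) of 19 genes of chemokines, cytokines, the IL-17 axis and the immediate early response (x) in the 3 ATM (red) and 3 BM (blue) libraries; lines are means. Tgfb1, Il17ra and Lcn2 lie lower in ATMs, and the other 16 genes lie higher, with no overlap between tissues.

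Genes of lipid handling rose in part. Among lipid-sensing receptors and their targets, 6 of the 15 members tested were called higher and 3 lower (median log2FC 0.72). Pparg, the fatty acid receptor of adipocytes and lipid-laden macrophages, was at 3499, 4496 and 4438 in ATMs and 63.8, 40.6 and 56.9 in BM (log2FC 6.27 ± 0.19 SE, adjusted p = 3.84e-21), and Nr1h3, which encodes the sterol receptor LXR alpha, was at 1808 and 254. Plin2, the coat of lipid droplets, was at 118278 and 16690.1. Of 26 lysosome genes, 10 were called higher and 2 lower (median log2FC 0.53), among them the proteases Ctsk (3.06) and Ctsl (2.61). Cholesterol synthesis and uptake had 7 of 17 members called higher and 1 lower (median log2FC 0.78), with Insig1, a brake on that pathway, at 4091 and 505. Iron and heme handling had 3 of 14 members called higher and 1 lower (median log2FC 0.43), beside 23.7% and 26.2% of all genes. The iron storage genes Fth1 and Ftl1 rose with log2FC 2.06 and 1.85.

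Few mitochondrial genes were called. Of 16 fatty acid oxidation genes 0 were called higher and 1 lower (median log2FC -0.25), and of 22 respiratory chain genes 0 and 2 (median log2FC -0.40). The former was Etfb (log2FC -1.04), an electron carrier whose call was lost in 8 of the alternatives, and the latter were Ndufs1 (-1.63) and Cox5b (-1.20). Glycolysis had 1 of 17 members called higher and 4 lower (median log2FC 0.45), with the glucose transporter gene Slc2a1 at 19156, 19959 and 18718 in ATMs and 2725, 2867 and 2719 in BM (log2FC 2.80 ± 0.074 SE, adjusted p = 1.59e-22) and the muscle phosphofructokinase gene Pfkm at 113 and 850.3. Of glycolysis genes 3 in place of 1 were called higher without ATM replicate 3, and 2 without ATM replicate 1, ATM replicate 2 or BM replicate 1.

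Metabolic hormones and their receptors had 7 of 11 members called higher and 3 lower (median log2FC 2.16). Lepr, the leptin receptor, was at 1459.5, 1443 and 1824 in ATMs and 40.7, 35.4 and 19.7 in BM (log2FC 5.61 ± 0.25 SE, adjusted p = 3.32e-17), in mice that make no functional leptin. Igf1 was at 620.4 and 32.8 and its receptor gene Igf1r at 526 and 3432, so ligand and receptor moved in opposite directions. Adipor2, a receptor of adiponectin, fell with a log2FC of -1.60. Glp1r, the target of beinaglutide, was listed for neither tissue and could not be analysed here.

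Ptpn11, which encodes SHP2, was at 2412, 2368 and 1512 in ATMs and 4373, 4286 and 4569 in BM (log2FC -1.07 ± 0.14 SE, adjusted p = 6.05e-08), close to the limit. Its call was lost with DESeq2 size factors (log2FC -0.99), over genes with at least 10 counts in every library (-0.97) and without ATM replicate 3 (-0.83). Counts do not tell the mutant from the normal allele. Of 25 genes of SHP2 and the Ras-ERK pathway, 6 were called higher and 2 lower (median log2FC 0.16, or -0.04 with library size as the only scaling). The other 17 were not called. Over all genes 23.7% were called higher and 26.2% lower, so the share called higher was near that of all genes. The genes that rose were led by Dusp5 (5.26), Dusp4 (5.17) and Spry1 (4.04), feedback inhibitors that ERK signaling induces, while Sos1, an activator of Ras, fell with -1.64. The kinase genes Braf, Map2k1, Map2k2 and Mapk3 were not called.

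Genes of host defense were divided by function. The phagocyte oxidase list had 1 of 7 members called higher and 5 lower (median log2FC -2.04). Cybb, its catalytic subunit, was at 7056, 6933 and 6888 in ATMs and 40854, 40955 and 40090.2 in BM (log2FC -2.55 ± 0.037 SE, adjusted p = 1.82e-28), and Ncf1 and Ncf4, which encode cytosolic parts, fell with -2.62 and -2.16. Complement had 8 of 15 members called higher and 3 lower (median log2FC 1.64), with C4b at 12757 and 984, and the integrin chains Itgam and Itgb2 lower (log2FC -2.99 and -2.24). C2 rose with 7.67, but by the annotation 46.9% of its exon length is shared with another gene. A read on both was counted for each. MHC class II had 2 of 11 members called higher and 5 lower (median log2FC -0.71). Its summed level was higher in ATMs, at 2456 to 2627 CPM against 1483 to 1532 in BM, so the median does not stand for the sum. Cd74, the invariant chain, rose with 1.14 and H2-Ab1 with 1.03, and both calls were lost with library size as the only scaling. Ciita, the activator of these genes, was at 97.1, 81.4 and 80.0 in ATMs and 326, 290.1 and 338 in BM (log2FC -1.88 ± 0.19 SE, adjusted p = 8.35e-10). Of immune checkpoints 5 of 12 were called higher and 0 lower, with Cd274, which encodes PD-L1, at 29588 and 3503 and Pdcd1, which encodes PD-1, at 1899.9 and 314.

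Scavenger and apoptotic cell receptors had 5 of 14 members called higher and 1 lower (median log2FC 0.62), with Axl, a receptor for GAS6, at 23797 and 3214. Fc gamma receptors with their signaling had 0 of 6 members called higher and 2 lower (median log2FC -0.54), and the inhibitory receptor gene Fcgr2b was at 2035 and 6140.0. Alternative activation had 7 of 13 members called higher and 2 lower (median log2FC 1.01), with Clec10a, a lectin of macrophages and dendritic cells, at 1520.2 and 395. The 2 called lower were Chil3 (log2FC -4.13) and Mgl2. The summed level of the list was lower in ATMs, at 2258 to 2356 CPM against 13230 to 13410 in BM.

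Transcription factor genes of blood lineages were divided, with 10 of 29 members called higher and 12 lower (median log2FC -0.43). Id3 was at 15059.8, 13758 and 14294 in ATMs and 109, 112 and 62.7 in BM (log2FC 7.23 ± 0.12 SE, adjusted p = 1.4e-27), and Klf4, a factor of monocytes and of vessel walls, at 10629 and 227. Cebpe, which directs granule formation, was at 208, 92.1 and 171 and 6614, 6558 and 6739 (log2FC -5.39 ± 0.15 SE, adjusted p = 4.53e-22), and Klf1, a factor of red cell precursors, at 45.9 and 1281. Spi1, which encodes PU.1, the factor shared by myeloid cells, was not called (log2FC -0.43). Of the other genes among the 8 highest, Gpihbp1, the capillary anchor of lipoprotein lipase, was at 21569, 21083 and 22352 in ATMs and 5.5, 3.12 and 3.48 in BM (log2FC 12.35 ± 0.15 SE, adjusted p = 2.18e-30), Cyp4b1 at 18556 and 5.66, Tspan7 at 9761 and 6.91, and Fxyd6 at 852 and 0.347. The list of matrix proteases and inhibitors had 7 of 14 members called higher and 2 lower (median log2FC 1.56), with the protease inhibitor gene Timp3 at 112064 and 541.

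To see whether the gap between tissues was that of lean mice, the log2FC in Vehicle was set against that in WT recipients by an interaction test in the same fit. The gap differed for 3749 genes (28.7%), 1553 of them (11.9%) shifted toward ATMs in Vehicle and 2196 (16.8%) toward BM. With library size as the only scaling, which moves the median difference by -0.37, the share shifted toward ATMs was 22% of the called genes in place of 41.4%. Late granule genes moved together: all 17 were called with a positive difference (median 5.68). Their summed level was 581 to 599.5 CPM in ATMs of WT mice, 27260 to 29090 in Vehicle and 112100 to 118200 in BM of WT mice. S100a8 differed by 7.28 ± 0.12 (SE, adjusted p = 1.16e-25), at a mean of 1996 in ATMs of WT mice and 333924 in Vehicle. Endothelial genes were called in 7 of 9 with a positive difference and 1 of 9 with a negative difference (median 1.51), and their sum was 944 to 951 CPM in ATMs of WT mice.

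The resident and identity lists of macrophages held more negative than positive differences against WT. Of the resident list 1 of 12 had a positive and 9 a negative difference (median -2.22), and of macrophage identity 1 and 5 of 13 (median -0.90). F13a1 differed by -6.21 ± 0.30 (SE, adjusted p = 8.52e-16), at 24962 in ATMs of WT mice and 289 in Vehicle. Csf1r differed by -3.53 ± 0.093 (SE, adjusted p = 1.77e-21), at 18672 and 1657. MHC class II had 9 of 11 members with a negative difference and 0 with a positive difference (median -1.66), and its summed level in ATMs was 12160 to 12680 CPM in WT mice and 2456 to 2627 in Vehicle. The lipid-associated list went the other way, with 11 of 17 positive and 2 negative (median 1.48): Fabp4 differed by 3.92 ± 0.10 (SE, adjusted p = 1.04e-21) and Trem2 by 2.65 ± 0.14 (SE, adjusted p = 3.54e-15). Xist, transcribed in female cells, was at 1051, 1274 and 1606 normalized counts in ATMs and 6383, 6499 and 6136 in BM of Vehicle, and at a mean of 16.7 in ATMs and 1.5 in BM of WT mice, so the groups differed in a sex-linked RNA. ATMs of WT mice also held RNA of the male tract: 13 genes of the epididymis and seminal vesicle in the ATM table summed to 3560 to 3720 CPM of all counts in WT and 0 to 1.73 in Vehicle. The part of that tissue in the differences against WT was not tested. Obesity, sex, the vehicle course with its timing and the makeup of the sorted cells cannot be told apart here.

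The same test against Combo called 3668 genes (28.1%), 1345 (10.3%) with a positive and 2323 (17.8%) with a negative difference. With library size as the only scaling the positive share of the called genes was 17.6% in place of 36.7%, with a shift of the median by -0.40. Mitosis genes had 0 of 25 positive and 23 negative differences (median -3.22), that is, the gap between tissues was wider in Vehicle. Top2a differed by -3.70 ± 0.12 (SE, adjusted p = 1.79e-19), at 3162 in ATMs of Combo and 176 in Vehicle. MHC class II had 11 of 11 negative (median -3.69) and macrophage identity 11 of 13 negative and 0 positive (median -2.88). Adgre1 differed by -3.32 ± 0.15 (SE, adjusted p = 3.06e-16), at 14074 in ATMs of Combo and 757 in BM of Combo, a wider gap than in Vehicle in the gene used for the sort. T cell genes had 11 of 11 negative (median -3.85) and chemokines 14 of 18 negative and 0 positive (median -2.02), with Cxcl1 at 7449 in ATMs of Combo. The lipid-associated list, mostly positive against WT, had 1 of 17 positive and 9 negative here (median -1.01). Its summed level in ATMs was 16980 to 17520 CPM in Vehicle and 22560 to 22830 in Combo. With beinaglutide alone it was 29830 to 30770 CPM, and with the antibody alone 36940 to 37790. Late granule genes had 11 of 17 positive and 1 negative (median 1.14). The comparisons with WT and with Combo share the 6 Vehicle libraries. Beside these values, the summed endothelial level was 848 to 953 CPM in ATMs of Combo and the pancreatic acinar list was at 406 to 424 CPM there, against 7.23 to 14.2 in Vehicle, and the part of such cells in the differences was not tested.

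**Figure D4:**
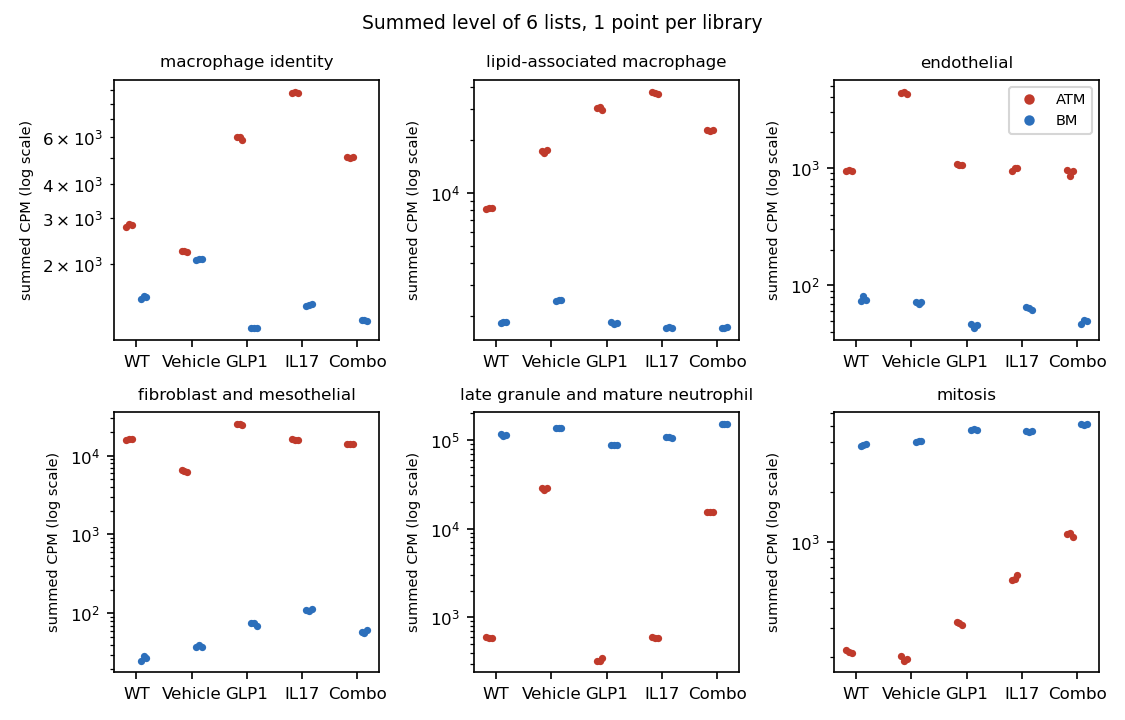
Summed CPM on a log scale (y) of 6 gene lists in each of the 30 libraries by group (x), ATMs in red and BM in blue, 1 point per library. For macrophage identity the 2 tissues lie closest in Vehicle, where ATMs are highest on the endothelial and late granule lists; GLP1 and IL17 are Ob/Ob recipients given beinaglutide or the antibody alone.

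**Figure D5:**
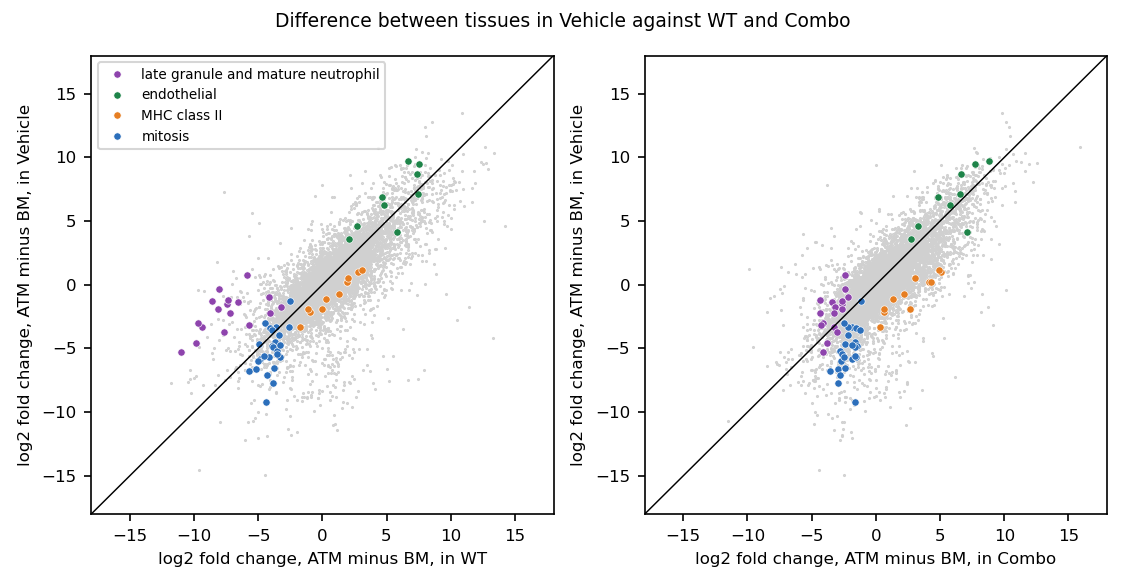
Log2FC of ATMs minus BM in Vehicle (y) against that in WT (left, x) and in Combo (right, x) for 13076 genes in grey, with 4 lists in color; the diagonal marks equal gaps. Late granule genes lie above the diagonal against WT, and MHC class II and mitosis genes lie mostly below it, more so against Combo.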

How the data were processed

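RNA-seq of ATMs and BM was compared in the Vehicle groups, with WT and Combo as further pairs. Per the submitters' notes and the study's methods, STAR 2.7.2a was used by the authors for alignment (mm10) and featureCounts 2.0.1 for counting on GENCODE M22. Strand was ignored, only reads with a unique position were counted, and a read that overlaps several genes was given to all of them. Counts of overlapping and near-identical genes are therefore uncertain. The deposited values are raw counts per gene symbol, in 1 table per tissue, and whether low genes were removed before deposit is not given in the sources used here. The tables were joined on the 13076 shared symbols. All 30 libraries in 10 groups were fitted with edgeR 4.0.16 (TMM, filterByExpr, robust quasi-likelihood, 20 residual degrees of freedom) in R 4.3.3, as tested on simulated data. In the simulated data most genes had the same level in both tissues, with the spread of all libraries of a tissue. They therefore did not test the scaling under a difference as wide as the real one, or the spread of ATMs in Vehicle. The study fitted DESeq2 within each tissue. Intervals and bounds cover counting error only. A gene at 0 in a group was set against 3 counts over that group. The labels call the 3 samples of a group biological replicates. Alternatives used other scalings, filters and tools (limma 3.58.1, DESeq2 1.42.0), the 6 Vehicle libraries alone and each library left out.

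Named genes were a panel of study genes, the 8 highest and 8 lowest log2FC with at least 500 normalized counts in the higher tissue and separated replicates, per list up to 4 called members in the main direction and 2 in the other, and per interaction the 4 highest and 4 lowest with at least 100 normalized counts. Csf1r, Gpnmb, Trem2, Mpo, S100a8, Cdh5, Top2a, Kif11, Fos and the other genes drawn in plots beyond this rule were chosen after their values were seen. Some genes the rule names are not reported here. The members and lists were chosen with earlier results of these data known. Promoters and positions came from RefSeq (GRCm38.p6) and GENCODE M21 (GRCm38).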

Additional observations from a re-analysis of the deposited data

Results flagged for a closer look

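The difference between ATMs and BM in Vehicle was not that of WT recipients for 3749 genes or that of Combo for 3668, by the interaction tests given above. Each difference below rests on 4 means, and a shift can lie in either tissue.

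Against WT, the largest positive differences among genes with at least 100 normalized counts were 14.94 on the log2 scale for Chil4, a chitinase-like protein (mean 8477 in ATMs and 55.6 in BM of Vehicle, 0 and 25.6 in WT), and 11.07 for Ivl, involucrin, a protein of the skin (528 in ATMs and 10.7 in BM of Vehicle, 0 and 5.17 in WT). They were 9.77 for Tmem132e (569.5 in ATMs and 19.9 in BM of Vehicle, 7.78 and 246 in WT) and 9.55 for Sh2d5 (6481 in ATMs and 451 in BM of Vehicle, 6.51 and 361 in WT). The most negative was -17.51 for Akr1b7, an aldo-keto reductase known from the vas deferens and adrenal gland (1.57 in ATMs and 29.8 in BM of Vehicle, 442258 and 43.4 in WT). Beside it stands the male tract RNA of the WT libraries given above, whose part in it was not tested. The next were -14.56 for Adam3, a sperm protein (0 in ATMs and 12.7 in BM of Vehicle, 396 and 1.44 in WT), -12.53 for Pkhd1l1 (0 in ATMs and 338 in BM of Vehicle, 1122 and 512 in WT) and -12.28 for Ggnbp1 (0 in ATMs and 36.5 in BM of Vehicle, 488 and 28.8 in WT). Where a group is at 0, the fitted difference depends on the prior count and is no bound.

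Against Combo, the largest positive differences were 7.91 for Dnah6, a dynein of cilia (mean 211 in ATMs and 9.58 in BM of Vehicle, 27.9 and 311 in Combo), and 7.12 for Sh2d5 (6481 in ATMs and 451 in BM of Vehicle, 61.2 and 592 in Combo). They were 6.98 for Aldh3b2 (432 in ATMs and 7.97 in BM of Vehicle, 22.4 and 53 in Combo) and 6.74 for Ivl (528 in ATMs and 10.7 in BM of Vehicle, 12 and 26.4 in Combo). The most negative were -13.33 for Zg16, a protein of secretory granules (0 in ATMs and 18.3 in BM of Vehicle, 819 and 11.6 in Combo), and -12.44 for the spindle gene Spag5 (0 in ATMs and 3953 in BM of Vehicle, 640.4 and 3639.8 in Combo). The next were -12.34 for Slc9a9 (0 in ATMs and 100.5 in BM of Vehicle, 1635 and 255 in Combo) and -12.25 for the pancreatic trypsinogen gene Prss2 (3.58 in ATMs and 31.7 in BM of Vehicle, 10454 and 18.9 in Combo).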

How the results depend on the processing

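Of 2735 values of named genes under the alternatives other than leaving out a library, 2705 kept their direction and their side of the threshold, 27 lost a call, 3 gained one and 0 reversed, and of 1524 on leaving out a library these numbers were 1514, 9, 1 and 0. List counts stayed within 1.5 times in 1544 of 1654 cases. Part of these numbers was fixed in advance. The filter removed no gene, so the alternative without it equals the main fit. The alternatives with no fold limit and with glmTreat reuse the main log2FC, so no gene could reverse in them. With no fold limit, 10336 genes were called in Vehicle (4789 higher and 5547 lower), 7328 against WT (3520 and 3808) and 7209 against Combo (3019 and 4190). A glmTreat test against the limit called 2156 against WT (930 and 1226) and 2102 against Combo (750 and 1352). With library size only, 961 genes were higher and 3407 lower against WT, and 789 and 3696 against Combo. Leaving out a library gave 6435 to 6535 calls in Vehicle (3055 to 3206 higher, 3329 to 3399 lower), 3641 to 3896 against WT (1521 to 1656 and 2117 to 2259) and 3536 to 3769 against Combo (1309 to 1433 and 2210 to 2352). Same-numbered ATM and BM libraries did not deviate together (r -0.0221 to 0.0273 over 15 pairs, 0 above 0.1), so the numbers were not taken as pairs. With the replicate block 6506, 3675 and 3598 genes were called, and 5972 over the 6 Vehicle libraries with the block. Over genes with at least 10 counts in every library the fibroblast genes called higher went from 8 to 4, cytokines from 10 to 6 and the IL-17 axis from 6 to 3, since fewer genes were tested. Without ATM replicate 2 the megakaryocyte genes called higher went from 1 to 2. Without ATM replicate 3 or BM replicate 1 the early B genes went from 1 to 2. The causes of changed calls were otherwise not tested.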

Other observations

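Genes listed in only 1 of the tables enter no comparison, since a gene missing from a table need not be absent from the tissue. The 3983 genes of the ATM table alone took 2.01 to 2.02% of the counts of the ATM libraries of Vehicle, and 305 of them were above 10 CPM. The highest was Pgf, placental growth factor, at 1064, 1075 and 1063 CPM, followed by the eosinophil attractant Ccl11 at 828, 793 and 855 and by Reg3g, an antimicrobial lectin of epithelia, at 859, 786 and 801. Among members of the lists, Csf3, which encodes the growth factor of granulocytes G-CSF, was at a mean of 160 ± 7.86 CPM (SD, n = 3), the mesothelial and epithelial keratin gene Krt19 at 130 ± 13.7 and the interferon gene Ifnb1 at 33.5 ± 2.56. The 277 genes of the BM table alone took 0.0319 to 0.034% of BM counts, with the pre-B cell genes Igll1 at 16.7 and Vpreb1 at 14.7 CPM and Rag1, which cuts antigen receptor genes, at 10.1.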
